A study of Mus musculus with 9 samples.

Results

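The transcriptome of unstimulated WT mouse dendritic cells (DCs) was described in 5 cultures, WT3, WT4, WT5, WT6 and WT7, which are 5 of the 9 RNA-Seq samples of the series. They were chosen by their label alone, as every sample with the WT genotype, and the 4 GNAS_KO samples enter no value below. All 5 carry the strain label C57BL/6J. Marrow from femurs and tibiae was grown with GM-CSF for 6 days, after which the CD11c+ cells were taken with magnetic beads, and no treatment was given. By label 2 cultures were male (WT3 and WT4) and 3 were female (WT5, WT6 and WT7). The study describes the cultures as biological replicates. No allele besides WT and no age is given in the sources used here, nor whether each culture came from a separate mouse. Such cells are a model of DCs made in a dish: the bead selection takes every cell with CD11c on its surface, which some macrophages also carry.

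DCs take up antigen, load its peptides on MHC molecules and show them to T cells, and on maturation they trade uptake for migration to lymph nodes through the chemokine receptor CCR7. GM-CSF signals through a receptor of an alpha chain and a shared beta chain, which activates JAK2 and STAT5, and in bone marrow it gives rise to cells with features of both DCs and macrophages. The levels below are TPM (a transcript's share of the library, scaled to a fixed total), which are corrected for transcript length, so that genes can be compared with each other within a culture. Where 5 values follow a gene they are the levels in WT3, WT4, WT5, WT6 and WT7, and a mean is given ± SD over the 5 cultures. Of 2 genes, one is called higher only where it was higher in each of the 5 cultures, since an exact two-sided sign test over 5 cultures cannot give a p below 0.0625. Genes said to lead a list, or to follow or come next in it, are placed by mean alone.

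The promoters of 3 genes are printed to show sequence near the start of genes whose levels are given below: *H2-Aa* and *H2-Eb1*, which encode MHC class II chains and were among the 25 most abundant genes, and *Cish*, a feedback inhibitor that STAT5 induces. Each holds 250 bases before and 50 bases after the start site in RefSeq (GRCm38.p6), 5′ to 3′ on the gene's strand: chr17:34287774-34288073 (- strand) for *H2-Aa*, chr17:34305617-34305916 (+ strand) for *H2-Eb1* and chr9:107296409-107296708 (+ strand) for *Cish*. Capitals mark GCAAC and CTGATTGG, letters of the X and Y boxes of class II genes, in *H2-Aa* and *H2-Eb1*, and TTCNNNGAA, the STAT-type motif, in *Cish*.
H2-Aa: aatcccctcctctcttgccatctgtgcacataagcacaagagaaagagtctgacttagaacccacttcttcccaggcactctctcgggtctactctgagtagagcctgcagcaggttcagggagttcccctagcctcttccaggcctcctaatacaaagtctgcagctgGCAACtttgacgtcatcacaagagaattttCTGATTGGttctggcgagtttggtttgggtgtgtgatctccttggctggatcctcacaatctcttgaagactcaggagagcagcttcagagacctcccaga
H2-Eb1: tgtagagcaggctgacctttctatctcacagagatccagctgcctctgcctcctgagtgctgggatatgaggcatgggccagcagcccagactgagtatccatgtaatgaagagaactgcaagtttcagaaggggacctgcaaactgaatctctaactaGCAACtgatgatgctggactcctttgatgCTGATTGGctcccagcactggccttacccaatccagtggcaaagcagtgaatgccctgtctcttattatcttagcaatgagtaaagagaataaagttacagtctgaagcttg
Cish: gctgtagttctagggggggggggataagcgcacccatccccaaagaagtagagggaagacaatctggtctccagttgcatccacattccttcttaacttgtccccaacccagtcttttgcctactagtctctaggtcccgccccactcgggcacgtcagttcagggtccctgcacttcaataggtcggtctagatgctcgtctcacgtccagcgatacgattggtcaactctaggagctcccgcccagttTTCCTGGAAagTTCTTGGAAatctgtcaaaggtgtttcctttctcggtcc
In both class II promoters GCAAC stood upstream of CTGATTGG, whose first base lay at -51 in *H2-Aa* and at -62 in *H2-Eb1*, counted from the start site. The *Cish* window held 2 matches that do not overlap, from bases 1 and 12 after the start site. On either strand, GCAAC was present in 35.2%, CTGATTGG in 4.10% and TTCNNNGAA in 8.30% of 32851 mouse promoters of this length, and 0.457% held TTCNNNGAA at 2 or more places. The motifs were chosen with these sequences in view, and a match is not evidence of binding.

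The deposited estimated counts summed to 34252701 to 49427934 per culture. WT3 and WT7 stood apart in ways that touch the levels below. In WT3, the 13 mitochondrially encoded genes held 1.39% of TPM, against 6.20 to 8.54% in the other cultures, and together with *Gm15662* and 5 pseudogenes on chromosome 1 that are nuclear copies of mitochondrial sequence they held 5.52%, against 18.5 to 21.5%. TPM add up to a fixed total, and WT3 had the highest level of 59.8% of the 8735 genes with a mean of 5 TPM or more. WT7 had the lowest level of 58.3% of them. WT7 also went against its label: *Eif2s3y*, a Y-linked translation factor gene, was at 68.3, 63.9, 0.0325, 0 and 72.8 TPM, and *Ddx3y*, a Y-linked RNA helicase gene, at 36.8, 40.4, 0.112, 0.15998 and 21.3 TPM. The Y-linked demethylase genes *Kdm5d* and *Uty* were at 10.4, 9.76, 1.42, 1.22 and 4.603 TPM and 5.54, 7.29, 0.197, 0.0928 and 3.04 TPM. The library labelled WT7 and female carried Y-linked transcripts, as the 2 libraries labelled male did, and no comparison of the sexes was made.

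Of 30588 genes, 10565 (34.5%) reached 1 TPM in every culture, here called expressed, and 18340 stayed under 1 TPM in every culture. Single cultures had 11576, 11462, 11438, 11236 and 11029 genes at 1 TPM or more. A small number of genes held much of the TPM: the 10 most abundant genes of a culture held 15.7, 24.5, 23.6, 22.7 and 24.99% of its TPM, 22.3 ± 3.80% on average, and the 1000 most abundant held 73.2 to 81.7%. The lowest of these shares belonged to WT3 and the highest to WT7. By mean, 10 genes lay at 10000 TPM or more, 143 between 1000 and 10000, and 970 between 100 and 1000. Those 10 included *Gm15662*, *mt-Co1*, *mt-Atp8* and the nuclear copies *Gm29216* and *Gm28661*, each lowest in WT3.

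Of the 25 genes with the highest mean, the protein-coding ones included genes of lysosomes, antigen presentation, iron storage and the actin cytoskeleton, besides *Eef1a1*, a translation elongation factor, at 5755 ± 719 TPM. *Lyz2*, which encodes the lysozyme of myeloid cells, ranked 2 of all genes at 19443, 27381, 21544, 36128 and 31651 TPM. The ferritin chains *Fth1* and *Ftl1*, which store iron, averaged 22536 ± 4184 TPM and 13665 ± 1373 TPM. *Tmsb4x*, whose product thymosin beta 4 binds actin monomers, was at 24728, 17481, 16535, 15540.1 and 21192 TPM. *Lgals3*, encoding the lectin galectin-3 that macrophages and DCs make, hardly varied, at 4234, 4264, 4747, 4636 and 4758 TPM with a coefficient of variation of 5.72%. *Ccl5*, a chemokine that draws T cells, was at 4422, 5266, 5839, 2703 and 6080.4 TPM and was the only cytokine gene among the 25, with its lowest level in WT6.

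The first place belonged to *Gm15662*, at 31767, 94692, 87058, 68709.7 and 75772 TPM, a symbol not matched here to GENCODE M21, which averaged 7.16% of TPM. *Gm12913*, which was not matched either, averaged 4273 ± 183 TPM. A further 9 of the 25 places were taken by mitochondrial genes or their copies: *mt-Co1*, *mt-Atp8*, *mt-Co3*, *mt-Atp6*, *mt-Cytb*, *Gm29216*, *Gm28661*, *Gm10925* and *Gm28437*. Each of the 9 had its lowest level in WT3, as *Gm15662* did. The split of reads between these genes and their near-identical copies is uncertain: *mt-Atp6* was at 213, 4473, 10233, 5775 and 4069 TPM, and *Gm28437* at 448, 5164, 1634, 3121 and 11446 TPM, in an order of cultures of its own.

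**Figure D1:**
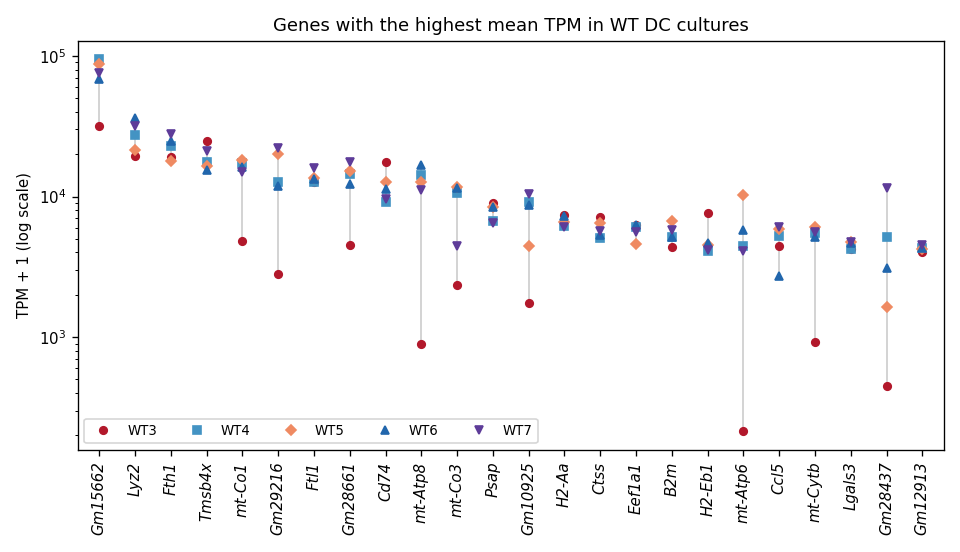
TPM + 1 (log scale) of 24 of the 25 genes with the highest mean TPM, ordered by mean, with 1 point per WT culture and a grey line over their range. WT3 lies lowest for *Gm15662*, for the 5 mitochondrial genes and for the 4 nuclear copies, while *Lgals3* stays between 4234 and 4758 TPM.

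The 4 genes that mark DCs and myeloid cells in these cultures were present in all 5. *Itgax*, which encodes the CD11c used for the selection, was at 242, 120.3, 279, 139.9 and 88.3 TPM, so that its highest level was 3.14-fold its lowest on the scale of TPM + 1. *H2-Ab1*, the beta chain of the class II molecule I-A, was at 5598, 3541, 4078, 4296 and 3529.8 TPM. *Ccr7*, the receptor of migrating mature DCs, was at 1379, 996, 1017, 661 and 786 TPM, and *Lyz2*, given above, was far higher than all 3. WT3 and WT5 were highest for *Itgax*, WT3 for *H2-Ab1* and *Ccr7*, and WT6 for *Lyz2*.

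Of the dendritic cell identity genes, 18 of 19 were expressed, against the 34.5% of all genes, with a median of 114 TPM. By mean, *H2-Ab1* and *Ccr7* were followed by *Id2*, an inhibitor of E proteins needed for DC development, at 815, 786, 1022, 814 and 815 TPM, with WT5 apart from the other 4. *Ccr7* exceeded *Id2* in 2 of 5 cultures. *Sirpa*, a receptor of conventional type 2 DCs that binds CD47, followed at 459.5, 337, 369, 347 and 238 TPM. *Mgl2*, a lectin of type 2 and monocyte-derived DCs, was at 518, 132, 569, 315 and 97.4 TPM, high in WT3, WT5 and WT6 and low in WT4 and WT7. Its near copy *Clec10a* was at 96.4, 25.6, 61.7, 45.1 and 23.01 TPM, and reads of the pair may have been shared between them. *Zbtb46*, a transcription factor of conventional DCs, averaged 19.2 ± 5.04 TPM. Genes of type 1 DCs, which cross-present, were unequal: *Irf8* was at 414, 289.5, 208, 188 and 205 TPM and *Batf3* at 204, 95.9, 119.6, 58.6 and 90.7 TPM, while the surface markers *Clec9a* and *Xcr1* averaged 5.52 ± 1.498 TPM and 0.187 ± 0.0747 TPM. *Flt3*, the receptor of the growth factor that drives steady-state DCs, was low too, at 4.58, 11.7, 2.65, 4.86 and 6.36 TPM.

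All 24 genes of dendritic cell maturation were expressed, beside 34.5% of all genes, with a median of 152 TPM. The 5 highest by mean were *Ccl22* at 1494, 1502, 2087, 1134 and 1198 TPM, *Ccr7*, *Tmem123*, a receptor-like membrane protein, at 1154, 1041, 910.02, 733 and 674 TPM, *Ccl17* and *Fscn1*. *Ccl22* was higher than *Ccr7* and *Ccl17* in each culture, and *Fscn1*, the actin bundling protein of DC dendrites, was at 1063, 591, 434, 297 and 413 TPM. The order of *Ccr7*, *Tmem123*, *Ccl17* and *Fscn1* changed between cultures. Summed over the list, the level was 10767, 7429, 8912, 5466 and 5586 TPM. WT3 and WT5 were the 2 highest cultures here, as they were for 12 of 24 of the genes, where 32.9% of all genes with a mean of 5 TPM or more have that pair on top. On TMM-scaled TPM, which set the bulk of genes level between cultures, the counts were 9 of the 24 and 16.4% of all genes.

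Macrophage markers were abundant too. Of that list 14 of 19 were expressed, beside 34.5% of all genes. The sums were 5659, 8723, 4625, 10765 and 10272 TPM, against 10193, 6809, 8197, 7502 and 6225 TPM for DC identity. A few genes weighed on both sums. *H2-Ab1*, given above, was a large part of each DC identity sum. *Apoe* and *Gpnmb* made up most of the macrophage sums of WT4, WT6 and WT7. *Apoe*, which carries lipids out of cells, led at 1619, 3877, 981, 4780.2 and 5291 TPM and *Gpnmb*, a glycoprotein of lipid-laden macrophages, followed at 392, 1651, 423, 1598 and 1446 TPM. Both were high in WT4, WT6 and WT7 and low in WT3 and WT5, and the ranges did not touch. The complement genes *C1qb*, *C1qa* and *C1qc*, which form C1q, averaged 1003 ± 188 TPM, 507 ± 115 TPM and 489 ± 73.2 TPM and did not follow that order. Of the list's 13 genes with a mean of 5 TPM or more, WT3 and WT5 were the 2 lowest for 4 and the 2 highest for 2. Over all such genes the shares were 4.84 and 32.9%. On TMM-scaled TPM the counts were 6 and 0, beside 15.98 and 16.4% of all genes. Genes of tissue-resident macrophages were low. *Timd4*, *Vsig4* and *Marco* averaged 0.0272, 0.0620 and 0.595 TPM, while the means of *Cd5l*, *Spic* and *Cd163* lay between 1 and 5 TPM. In bulk RNA, fewer cells of a type and less RNA per cell cannot be told apart, so these sums give no share of cells.

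Monocyte markers were led by *Lyz2* and by *Cd14*, the co-receptor for lipopolysaccharide, at 468, 395, 296, 541 and 454 TPM. *Ccr2*, the receptor with which monocytes leave the marrow, was at 153, 201, 103, 329.7 and 175 TPM, *Fn1*, fibronectin, at 71.6, 200.01, 31.2, 278 and 340.4 TPM and *Ly6c2*, the antigen of inflammatory monocytes, at 48.1, 147, 22.4, 204 and 262 TPM. For *Fn1* and *Ly6c2*, WT4, WT6 and WT7 were again above WT3 and WT5 without overlap. *Cx3cr1*, the fractalkine receptor of patrolling monocytes, averaged 4.51 ± 2.96 TPM.

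**Figure D2:**
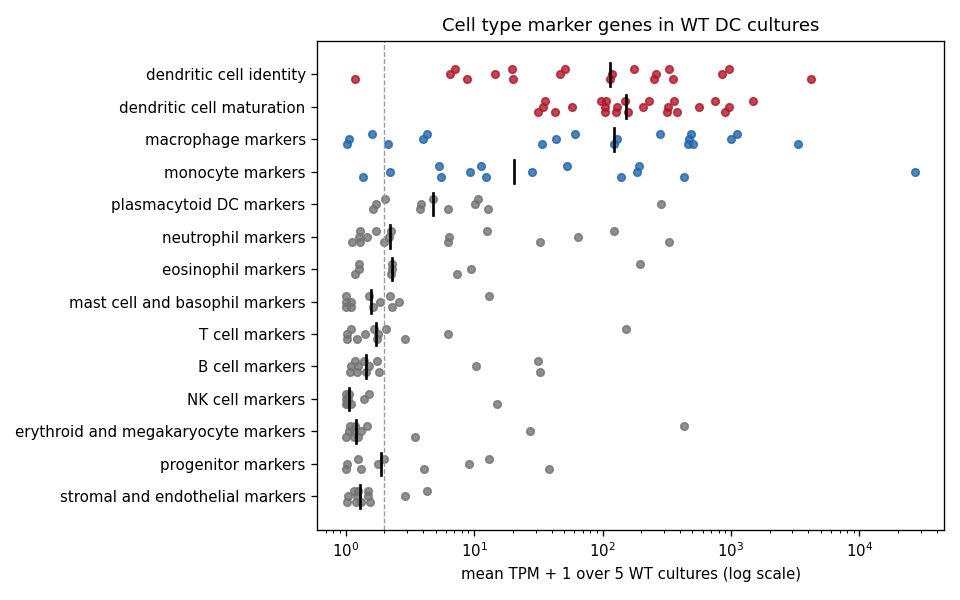
Mean TPM + 1 over the 5 WT cultures (log scale) of each gene in 14 cell type marker lists, 1 point per gene, with a black bar at the list's median and a dashed line at 1 TPM. DC lists are red, macrophage and monocyte lists blue and other cell types grey. Medians of the DC lists lie at 114 and 152 TPM, those of the macrophage and monocyte lists at 121 and 19.3 TPM, and those of the other cell types at 3.82 TPM or less.

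Many markers of lymphocytes, but not all, were at or near 0. Of the T cell list, *Cd3e* and *Trbc2* were listed at 0 in 4 of 5 cultures and averaged 0.0178 and 0.0166 TPM, and *Cd3g*, *Cd8b1*, *Lck* and *Trac* stayed under 1 TPM in every culture. Of the 12 T cell genes, 2 were expressed, beside 34.5% of all genes: *Cd28*, a costimulatory receptor, at 1.45, 6.81, 2.39, 10.3 and 5.43 TPM, and *Il7r*, at 177, 165, 161, 135 and 120.01 TPM. The interleukin 7 receptor alpha chain also pairs with *Crlf2* as the receptor for TSLP on DCs, and *Crlf2* was at 84.5, 54.1, 56.9, 61.8 and 61.6 TPM. Of the B cell list, *Pax5*, *Ebf1*, *Vpreb1*, *Vpreb3*, *Igll1* and *Ms4a1* stayed under 1 TPM, while 3 of 13 were expressed, beside 34.5% of all genes. The immunoglobulin genes *Ighm* and *Igkc* averaged 31.4 ± 2.51 TPM and 30.3 ± 14.3 TPM, and *Cd22*, an inhibitory receptor, averaged 9.23 ± 2.23 TPM. Of the NK cell list, 9 of 10 stayed under 1 TPM, beside 18340 of all 30588 genes: *Ncr1*, *Gzma*, *Gzmb*, *Prf1*, *Eomes*, *Nkg7*, *Klra8*, *Klrb1c* and *Klre1*. *Klrd1* was at 9.26, 22.8, 4.86, 8.58 and 24.6 TPM.

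Granulocyte genes were unequal. Of the neutrophil list, 4 of 16 genes stayed under 1 TPM in every culture, beside 18340 of all 30588 genes. They were *Mpo*, *Elane*, *Ctsg* and *Fcnb*, which encode granule proteins of immature cells. *Prtn3*, a granule protease gene of the same list, was not among the 4. *Mmp8*, a collagenase, was at 96.7, 471, 107, 557 and 417 TPM, *S100a8*, a subunit of calprotectin, at 165, 141, 74.9, 64.8 and 159.8 TPM and its partner *S100a9* at 84.5, 91.2, 23.5, 16.6 and 98.4 TPM. The 2 S100 genes were lowest in WT5 and WT6, which *Mmp8* was not. *Csf3r* and *Retnlg*, of the G-CSF receptor and a secreted neutrophil protein, averaged 31.5 ± 9.35 TPM and 11.5 ± 12.1 TPM. Of the eosinophil list, *Epx*, *Prg3* and *Il5ra* stayed under 1 TPM, while *Ear2*, a ribonuclease gene that monocyte-lineage cells also transcribe, was at 189, 47.8, 520.4, 141 and 74.4 TPM. WT5 sets its mean, which is 113 TPM over the other 4 cultures. *Siglecf* and *Prg2* averaged 6.38 ± 1.53 TPM and 8.35 ± 5.00 TPM, and *Ear6*, *Ear1* and *Ccr3* between 1.23 and 1.31 TPM.

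The mast cell proteases *Cma1*, *Mcpt4* and *Tpsb2* were listed at 0 in every culture, *Fcer1a*, *Ms4a2* and *Cpa3* stayed under 1 TPM, and *Kit*, the stem cell factor receptor, was at 10.8, 20.3, 7.88, 10.3 and 10.8 TPM. *Il4*, *Gata2*, *Hdc* and *Prss34* averaged between 0.834 and 1.59 TPM. Among erythroid and megakaryocyte genes, *Hba-a1*, *Hba-a2*, *Hbb-bs*, *Hbb-bt*, *Alas2*, *Klf1*, *Epor* and *Gp9* stayed under 1 TPM. *Pf4*, a platelet chemokine that macrophages also make, was at 176, 419, 144, 612 and 780.1 TPM, and *Ppbp* at 9.22, 25.2, 12.0, 40.03 and 43.5 TPM. Both were highest in WT6 and WT7, as *Apoe* was. The plasmacytoid DC list was led by *Bst2*, an interferon-induced tether of viruses, at 407, 264, 213, 206 and 323 TPM, while *Siglech*, the lectin that defines those cells, averaged 5.21 ± 2.28 TPM. The other 4 leading genes, *Spib*, *Runx2*, *Tcf4* and *Ly6d*, averaged between 3.82 and 11.7 TPM.

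Among progenitor genes *Ly6a*, the stem cell antigen Sca-1 that interferon also induces, was at 13.3, 38.3, 24.9, 39.0 and 70.2 TPM, *Sox4* at 16.3, 6.56, 7.53, 4.57 and 5.47 TPM and *Cd34* at 3.58, 2.20, 5.15, 3.26 and 1.20 TPM. *Gata1*, *Hlf*, *Mecom* and *Mycn* stayed under 1 TPM. Stromal and endothelial genes were low: 9 of 12, *Col1a1*, *Col1a2*, *Col3a1*, *Kdr*, *Cdh5*, *Pdgfra*, *Pdgfrb*, *Cxcl12* and *Lum*, lay under 1 TPM in every culture. That count stands beside 18340 of all 30588 genes. *Dcn* averaged 0.553 ± 0.390 TPM. *Lepr*, the leptin receptor, was at 6.10, 0.926, 6.32, 2.36 and 0.761 TPM, highest in WT3 and WT5, and *Pecam1* averaged 1.90 ± 0.484 TPM.

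Of 47 myeloid and DC transcription factor genes, 42 were expressed, beside 34.5% of all genes. *Id2* was the highest, and *Bhlhe40*, a transcriptional repressor, followed at 501, 521, 482, 636 and 343 TPM. *Klf6*, of the Krüppel-like factors, averaged 313 ± 64.8 TPM, *Irf8* came next, and *Spi1*, whose product PU.1 sets the myeloid fate, was steady at 229, 227, 244, 256 and 212 TPM. *Irf8* was higher than *Irf4* in each culture, 3.17-fold to 10.1-fold. *Irf4*, the factor of type 2 DCs, was at 66.1, 34.2, 65.7, 41.0 and 20.4 TPM, with WT3 and WT5 above the other 3. That pair was the 2 highest for 8 of the list's 40 genes with a mean of 5 TPM or more, beside 32.9% of all such genes. On TMM-scaled TPM the count was 6, beside 16.4% of all genes. *Irf4* was named after its values were seen.

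All 17 genes of NF-kB subunits and inhibitors and all 19 of STAT factors and SOCS feedback were expressed, beside 34.5% of all genes. *Nfkbia*, the inhibitor that NF-kB itself induces, led at 604, 395, 567, 500.1 and 353 TPM and *Tnfaip3*, the deubiquitinase A20 that ends signalling, followed at 139.5, 184, 105, 231 and 99.1 TPM. *Relb* and *Nfkb2*, which form the dimer of the alternative pathway, averaged 129 ± 38.4 TPM and 95.5 ± 43.1 TPM, and *Nfkb1* 99.03 ± 39.6 TPM. *Rel* was at 74.3, 91.9, 94.6, 99.8 and 21.3 TPM, with WT7 below the rest. *Rel* was named after its values were seen.

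Downstream of the GM-CSF receptor, *Jak2* was the highest of the STAT and SOCS list at 340.2, 259.7, 265, 222 and 158 TPM, in each culture above *Socs2*, a feedback inhibitor, at 255, 115, 189.9, 90.4 and 88.3 TPM. *Stat4*, *Stat3* and *Stat6*, which carry IL-12, IL-10 and IL-4 signals, averaged 96.2 ± 37.0 TPM, 91.2 ± 27.8 TPM and 73.8 ± 14.4 TPM. *Stat5a* and *Stat5b*, which GM-CSF activates, were lower, at 20.3 ± 6.04 TPM and 16.4 ± 4.00 TPM. *Cish*, whose promoter with 2 TTCNNNGAA matches is printed above, was at 39.1, 10.6, 41.7, 13.04 and 9.28 TPM. WT3 and WT5 were above the other 3 cultures for *Socs2* and *Cish*, and for 11 of 18 of the genes in the list they were the 2 highest, beside 32.9% of all genes, and for 7 on TMM-scaled TPM, beside 16.4%.

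All 14 genes listed for presentation on MHC class II were expressed, beside 34.5% of all genes. They summed to 47878, 29768, 36433, 34672 and 30795 TPM, 3.59% of TPM on average. *Cd74*, the invariant chain that holds class II molecules until they reach the endosome, led at 17639, 9128, 12613, 11273 and 9641 TPM. *H2-Aa* followed at 7329.5, 6209, 6558, 7212 and 6078 TPM, then *Ctss*, the cathepsin that cuts the invariant chain, at 7146, 5108, 6526, 5362 and 5643 TPM. *H2-Eb1*, the gene of the class II E beta chain, was at 7687, 4065, 4509.8, 4655 and 4156 TPM. *H2-Aa* was higher than *H2-Ab1* in each culture, 1.31-fold to 1.75-fold. *H2-Aa* and *H2-Eb1*, whose printed promoters share GCAAC and CTGATTGG, did not vary alike: the coefficient of variation was 8.55% for *H2-Aa* and 30.2% for *H2-Eb1*, which WT3 alone lifted. *Ciita*, the coactivator that class II promoters need, was far lower at 38.2, 34.4, 26.4, 40.2 and 14.7 TPM.

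For MHC class I all 23 genes were expressed, beside 34.5% of all genes. *B2m*, the light chain, was at 4363, 5134, 6729.8, 5168 and 5749.5 TPM, *H2-D1* at 2646, 1405, 2029, 1351 and 1391 TPM and *H2-K1* at 2213, 1203, 1861, 1095 and 1193 TPM. *H2-D1* was above *H2-K1* in each culture, although both share sequence with the H2-Q and H2-T genes and reads can be split between them. *Calr*, a chaperone of the loading complex, and *Psme2*, of the proteasome activator that interferon gamma induces, averaged 512 ± 126 TPM and 483 ± 179.7 TPM. WT3 and WT5 were the 2 highest cultures for 14 of 23 of these genes, beside 32.9% of all genes. *B2m* was not one of the 14, being lowest in WT3. On TMM-scaled TPM the count was 10, beside 16.4% of all genes.

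Among costimulatory and checkpoint ligands *Cd47*, the signal that restrains phagocytosis, was at 291, 213, 296, 199 and 216 TPM and *Cd274*, encoding PD-L1, at 215, 221, 213, 223 and 149 TPM. *Cd274* exceeded *Pdcd1lg2*, encoding PD-L2, in each culture, and *Pdcd1lg2* was at 179, 73.2, 141, 72.0 and 54.6 TPM. *Cd48*, a ligand of CD244, was steadier, at 99.6, 113, 151, 137 and 124 TPM, than the adhesion ligand *Icam1*, at 211, 97.1, 120.5, 79.1 and 78.5 TPM. Of the pair that gives T cells their second signal, *Cd86* was at 115, 81.9, 157, 100.1 and 60.5 TPM, above *Pdcd1lg2* in 4 of 5 cultures, and it was higher than *Cd80* in each culture, 2.03-fold to 3.85-fold. *Psap*, prosaposin, which loads lipids on CD1d, was at 9045, 6698, 8374, 8392 and 6509.6 TPM and *Cd1d1* itself at 60.2, 37.6, 62.7, 40.5 and 25.8 TPM. *Mr1*, which presents vitamin metabolites, averaged 13.1 ± 2.60 TPM, and *Cd1d2* 0.644 ± 0.396 TPM.

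Of 38 interleukin and interferon genes 11 (28.9%) were expressed, beside 34.5% of all genes. In every culture 24 of them stayed under 1 TPM, beside 18340 of all 30588 genes. *Il1b*, the fever cytokine, led at 353, 141, 118, 192 and 140.2 TPM, and *Il1rn*, its receptor antagonist, followed at 73.5, 105, 71.4, 144 and 107 TPM. *Il12b*, the p40 chain shared by IL-12 and IL-23, was at 71.8, 106, 20.1, 43.9 and 44.0 TPM, while its partners *Il12a* and *Il23a*, named because the pair is needed, averaged 0.172 and 0.0657 TPM. *Ebi3*, a chain of IL-27, averaged 42.6 ± 6.68 TPM. *Il1a* was at 5.27, 23.4, 13.9, 54.6 and 22.3 TPM, lowest in WT3, where *Il1b* was highest, and highest in WT6.

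Among growth factors *Thbs1*, thrombospondin, which binds CD36 and CD47, led at 1325, 1329, 1000.1, 1918 and 899 TPM and *Grn*, progranulin, a lysosomal growth factor, followed at 638, 439, 478, 519.8 and 479 TPM. *Spp1*, osteopontin, was at 167, 504, 246, 510.2 and 650.4 TPM, in WT4, WT6 and WT7 above WT3 and WT5, and *Vegfa*, of blood vessel growth, at 359.95, 324, 224, 309 and 201 TPM. WT3 and WT5 were the 2 lowest for 3 of the list's 15 genes with a mean of 5 TPM or more, beside 4.84% of all such genes. On TMM-scaled TPM the count was 5, beside 15.98% of all genes. *Mif* averaged 140.3 ± 59.4 TPM. In the TNF superfamily 9 of 18 genes were expressed, beside 34.5% of all genes. *Tnfsf12* and *Tnfsf13* led at 49.9 ± 5.29 TPM and 43.1 ± 11.8 TPM, and *Tnf* itself was at 25.3, 21.5, 64.5, 44.2 and 15.6 TPM, highest in WT5. *Tnfsf4*, which encodes OX40L, and *Tnfsf9*, of 4-1BBL, averaged 30.8 ± 8.81 TPM and 7.78 ± 1.20 TPM.

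Chemokine genes summed to more than interleukins or growth factors in each culture. The 34 genes summed to 13161, 12423, 17375, 12197 and 14127 TPM, and 19 of them were expressed, beside 34.5% of all genes. After *Ccl5*, *Ccl6*, a chemokine of myeloid cells, was at 2627, 1992, 4682, 2982 and 2411 TPM. *Ccl22* and *Ccl9*, a ligand of CCR1, averaged 1483 ± 377 TPM and 1098 ± 231 TPM, and *Cxcl2*, which draws neutrophils, was at 659, 1037, 469, 1661 and 1325 TPM. *Ccl17*, the other ligand of CCR4, was at 1229.8, 325, 1428, 459.7 and 313 TPM, so that *Ccl22* exceeded it 1.21-fold to 4.63-fold. Of the chemokine genes, 9 of 18 with a mean of 5 TPM or more had a highest culture at 3 or more times the lowest, beside 4.57% of all 8735 such genes. The cultures at the top were not the same for each chemokine, as *Ccl17* was highest in WT3 and WT5 and *Cxcl2* in WT6 and WT7.

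On the receiving side *Ccr7* was the highest chemokine receptor in each culture. *Cxcr4*, which holds cells in the marrow, was at 131, 293, 146, 338 and 241 TPM, highest where *Ccr7* was lowest, in WT6, and *Ccrl2*, a receptor that holds chemerin, at 141, 237, 76.2, 294 and 203 TPM. *Ccr2* is given above and *Ccr1*, the receptor of CCL3 and CCL9, was at 117, 122, 172, 177 and 118 TPM. The remaining receptors were low, and 12 of 23 stayed under 1 TPM in every culture, beside 18340 of all 30588 genes.

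Of the colony-stimulating factor receptors, *Csf2rb*, the shared beta chain for GM-CSF, IL-3 and IL-5, was at 679.5, 646, 681, 575 and 388 TPM and *Csf2ra*, the alpha chain of the GM-CSF receptor, at 321, 221, 256, 244 and 212 TPM. The beta chain exceeded the alpha chain 1.83-fold to 2.92-fold. *Csf2rb2*, the beta chain copy for IL-3, was at 323, 331, 324, 317 and 221 TPM, and reads of *Csf2rb* and *Csf2rb2* may have been shared. *Csf1r*, the receptor for M-CSF, was at 535, 459.8, 376, 609 and 348 TPM, under *Csf2rb* in 4 of 5 cultures. *Il3ra* and *Csf3r* averaged 37.6 ± 4.16 TPM and 31.5 ± 9.35 TPM, *Kit* and *Flt3* are given above, and *Epor* averaged 0.168 TPM. The ligand genes *Csf2* and *Csf3* averaged 0.0526 and 0.0565 TPM, so that transcripts of GM-CSF itself were at or near 0.

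Of the interleukin and interferon receptors, *Ifngr1*, the binding chain for interferon gamma, was at 228, 206, 172, 263 and 182 TPM, *Il1r2*, a decoy for IL-1, at 102, 126, 234, 192 and 57.6 TPM and *Il2rg*, the common gamma chain, at 129.7, 127, 125, 154 and 127 TPM. *Il21r* averaged 119 ± 20.4 TPM. In the TNF receptor superfamily *Tnfrsf1b* exceeded *Tnfrsf1a* in each culture and led at 318, 204, 228, 205 and 173 TPM, and *Tnfrsf9*, *Fas* and *Ltbr* averaged 121 ± 23.6 TPM, 90.3 ± 36.3 TPM and 40.3 ± 8.72 TPM.

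Pattern recognition genes were widely but modestly transcribed, 30 of 32 being expressed, beside 34.5% of all genes, with a median of 13.2 TPM. After *Cd14* came *Ly86*, the partner of CD180, at 151, 201, 279, 276 and 242 TPM and *Tlr2*, which binds lipopeptides, at 148, 133, 149, 225 and 101 TPM. *Pycard* and *Nlrp3*, of the inflammasome, averaged 71.0 ± 14.8 TPM and 63.0 ± 25.8 TPM. None of the 24 genes with a mean of 5 TPM or more varied 3-fold, where only 4.57% of all 8735 such genes did.

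C-type lectins were led by *Clec4n*, encoding dectin-2, a receptor for fungal mannans, at 2837, 1461, 2858, 1897 and 1309 TPM. *Clec7a*, dectin-1, which binds beta-glucan, was lower in each culture at 728, 939.9, 905, 1038 and 584 TPM. *Clec4d* followed at 411, 551, 253, 536 and 563 TPM and *Clec4a2* averaged 251 ± 40.4 TPM. *Clec4n* was highest in WT3 and WT5, in contrast to *Clec4d*, which was lowest in WT5.

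Among Fc receptors and adaptors *Tyrobp*, encoding DAP12, and *Fcer1g*, the common gamma chain of Fc receptors, were at 1762, 1800.03, 1997, 2087 and 2143 TPM and 528, 652, 751, 866 and 910.2 TPM. *Fcgr3* and *Fcgr2b*, the activating and inhibitory IgG receptors, averaged 686 ± 124 TPM and 413 ± 49.7 TPM, and *Syk*, the kinase that Fc receptors and dectins recruit, 112 ± 20.1 TPM. Of the scavenger receptors, *Cxcl16*, a membrane chemokine that binds oxidized lipid, *Cd68*, *Mfge8* and *Cd36*, which takes up fatty acids and dying cells, averaged 543 ± 130.3 TPM, 460.2 ± 133 TPM, 377 ± 163 TPM and 335 ± 47.2 TPM. *Msr1* was at 183, 193, 166, 238 and 125 TPM. Integrins were led by *Itgb2*, the beta chain that pairs with CD11c, at 581, 384, 497, 436 and 326 TPM, above *Itgam*, of CD11b, at 194, 278, 187, 385 and 199.7 TPM. *Itgam* exceeded *Itgax* in 3 of 5 cultures, and *Itgb1* and *Itgb5* averaged 208 ± 56.3 TPM and 95.1 ± 20.4 TPM.

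The genes of cAMP signalling were described in full, since the gene of the G protein subunit Gs alpha is the one altered in the rest of the series. Gs alpha stimulates adenylyl cyclases, which make cAMP, phosphodiesterases break it down, and protein kinase A and Epac respond to it. Of 31 genes of Gs-coupled receptors and their accessory proteins 12 (38.7%) were expressed, near the 34.5% of all genes. *Ramp3*, a partner of the calcitonin receptor-like receptor, was at 278, 139.5, 204, 99.1 and 128 TPM, and *Gpr65*, a proton sensor, at 120.1, 103, 133, 95.6 and 87.9 TPM. *Ptger4*, the EP4 receptor for prostaglandin E2, was at 63.6, 42.0, 59.6, 52.9 and 31.2 TPM and the adenosine receptor gene *Adora2a* averaged 21.9 ± 10.03 TPM. For 8 of 9 with a mean of 5 TPM or more WT3 and WT5 were the 2 highest cultures on TPM, and for 4 on TMM-scaled TPM, beside 32.9 and 16.4% of all genes.

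*Gnas* itself, which encodes Gs alpha, was at 532, 415, 404, 407 and 432 TPM, with WT3 apart from the other 4, and *Gnai2*, of the inhibitory Gi family, was at 522, 415, 415, 454 and 371 TPM. Neither was the higher in each culture, since *Gnas* exceeded *Gnai2* in 2 of 5. *Gnai3* averaged 103 ± 18.3 TPM and *Gna13* 95.9 ± 20.8 TPM, followed by *Gnaq*, *Gna12* and *Gna15* at 44.6, 28.9 and 19.4 TPM. *Gnal*, the close relative of *Gnas* in the olfactory system, averaged 2.10 ± 0.148 TPM, and *Gna11* 5.50 ± 1.45 TPM. *Gnat1*, *Gnat2*, *Gnat3*, *Gnaz*, *Gnao1*, *Gna14* and *Gnai1* averaged under 1 TPM.

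Only a pair of adenylyl cyclases reached 5 TPM. *Adcy6* was at 119, 75.1, 72.3, 38.6 and 41.1 TPM and *Adcy7* at 48.5, 45.6, 43.8, 56.1 and 29.1 TPM, with *Adcy6* the higher in 4 of 5 cultures and *Adcy7* in WT6. *Adcy9* and *Adcy4* averaged 1.95 ± 0.746 TPM and 1.41 ± 0.652 TPM. *Adcy3* averaged 0.964 TPM, *Adcy1*, *Adcy2*, *Adcy5* and *Adcy10* at most 0.188 TPM, and *Adcy8* was listed at 0. The cyclase sum was 173, 125, 123, 98.97 and 73.0 TPM, highest in WT3 and lowest in WT7.

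One phosphodiesterase stood above the others. *Pde4b*, specific for cAMP, was at 161, 183, 145, 173 and 99.1 TPM, in each culture 4.00-fold to 8.74-fold the next, *Pde6d*, at 40.3, 20.9, 27.6, 20.5 and 23.02 TPM. *Pde6d* encodes a carrier of prenylated proteins and not a catalytic subunit, and *Pde1b*, which calcium and calmodulin activate, and *Pde4d* averaged 17.8 ± 6.14 TPM and 17.1 ± 5.06 TPM. *Pde3b*, *Pde8a*, *Pde2a*, *Pde7a*, *Pde4a*, *Pde7b* and *Pde8b* averaged 10.8, 9.33, 8.92, 7.23, 4.25, 4.21 and 3.12 TPM. The other members, *Pde5a*, *Pde9a*, *Pde6h*, *Pde10a*, *Pde6g*, *Pde6a*, *Pde4c*, *Pde3a*, *Pde1c*, *Pde1a*, *Pde11a*, *Pde6c* and *Pde6b*, averaged under 1 TPM.

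Of the cAMP effectors, the kinase inhibitor *Pkib* was the most abundant and, of those at a mean of 1 TPM or more, the most variable, at 712, 229, 374, 191 and 179 TPM, and *Prkar1a*, the type I regulatory subunit, was at 159.7, 131, 119.7, 131 and 102 TPM. *Pkib* exceeded *Prkar1a* 1.46-fold to 4.46-fold. *Pkig*, *Prkaca*, *Prkar2a*, *Prkar2b* and *Prkacb* averaged 39.1 ± 7.49 TPM, 32.8 ± 4.37 TPM, 30.4 ± 11.1 TPM, 27.3 ± 12.5 TPM and 25.5 ± 4.84 TPM. The catalytic subunits *Prkaca* and *Prkacb* varied less than *Pkib*, with coefficients of variation of 13.3 and 19.0003%, against 66.4%. The Epac genes *Rapgef3* and *Rapgef4*, and *Prkar1b* and *Pkia*, averaged 0.178, 0.318, 0.822 and 0.00768 TPM.

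**Figure D3:**
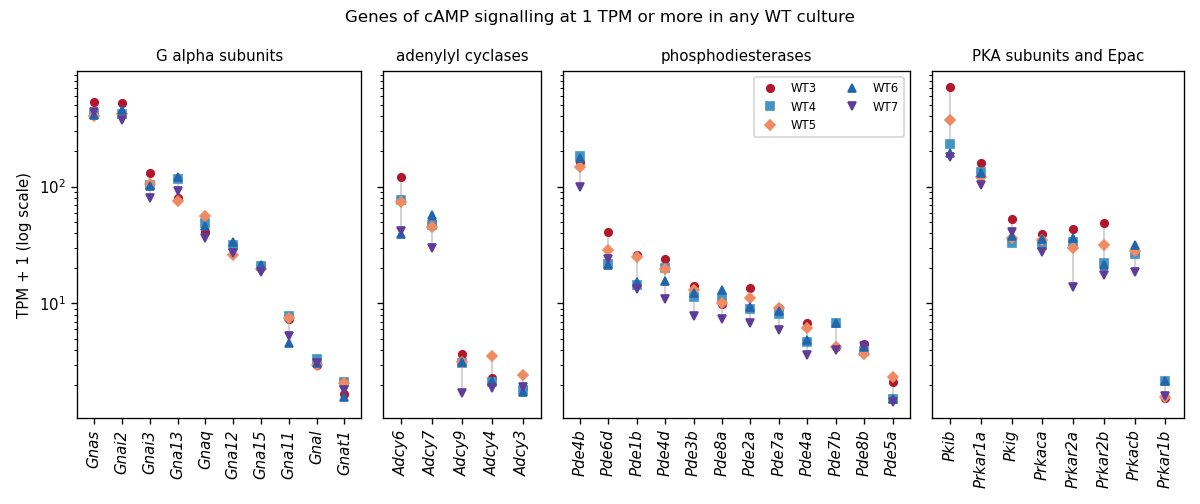
TPM + 1 (log scale) of the genes of 4 cAMP families that reached 1 TPM in any WT culture, ordered by mean, with 1 point per culture and a grey line over their range. *Pde4b*, at 99.1 to 183 TPM, lies above every other phosphodiesterase, and *Pkib* spreads from 179 to 712 TPM.

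Lists on the state of the cells held few silent genes. In the type I interferon response 24 of 25 genes were expressed, beside 34.5% of all genes, though most were low, with a median of 11.5 TPM. *Mx1*, the highest of the list by mean, was at 461, 391, 242, 199 and 236 TPM and *Ifi27l2a* at 215, 80.9, 262, 145 and 152 TPM. *Oas1a* averaged 31.1 ± 4.76 TPM. All 24 cell cycle genes were expressed, beside 34.5% of all genes, with a median of 8.19 TPM. *Pcna*, the clamp of DNA polymerase, led at 145, 141, 147, 155 and 146 TPM and was among the 10 steadiest genes, while the mitotic genes *Cdk1* and *Top2a* averaged 25.1 ± 4.98 TPM and 22.3 ± 5.33 TPM and the replication helicase genes *Mcm3* and *Mcm6* 24.2 ± 4.23 TPM and 20.2 ± 5.26 TPM. WT3 and WT5 were the 2 highest for 16 of 21 of them, and for 10 on TMM-scaled TPM, beside the same 32.9 and 16.4%.

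All 22 cholesterol synthesis genes were expressed, beside 34.5% of all genes. They were led by *Idi1* at 121, 67.4, 84.7, 60.9 and 46.4 TPM and *Pmvk* at 119, 60.4, 47.9, 48.3 and 51.9 TPM, and *Insig1* and *Fdps* averaged 50.9 ± 14.5 TPM and 46.4 ± 16.7 TPM. In glycolysis *Gapdh* was at 1117, 1319, 1059.5, 1546 and 1751 TPM and *Aldoa* at 1024, 742, 648, 867 and 819 TPM, and *Pkm*, *Ldha* and *Eno1* averaged 483 ± 92.5 TPM, 426 ± 70.6 TPM and 378 ± 65.4 TPM. *Gapdh*, often used as a reference gene, was highest in WT7, where most genes were lowest.

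Lysosomal genes summed to 30534 ± 4047 TPM. After *Psap* and *Ctss* came *Cst3*, the cathepsin inhibitor cystatin C, at 7181, 2902, 4718, 2652 and 3087 TPM, and *Ctsd*, an aspartic protease, at 2984, 3225, 2938, 3867 and 3359 TPM, and neither was the higher in each culture. *Cd63* averaged 1119.7 ± 249.2 TPM. In iron and redox handling *Prdx1* and *Gpx1*, which remove peroxides, and *Cyba*, of the NADPH oxidase, averaged 2442 ± 176 TPM, 1726 ± 261 TPM and 1048 ± 208 TPM. Of the actin genes *Actg1* was at 4939, 3558, 3773, 3654 and 3614 TPM, *Actb* at 4078, 2778, 3099, 2532 and 3017 TPM and *Vim* at 3616, 1919, 2058, 2018 and 2023 TPM, each highest in WT3, and *Tmsb10* averaged 1527 ± 274 TPM. Of the ribosomal protein genes, *Rplp1*, *Rpl41*, *Rpl13a*, *Rpl32* and *Rps18* averaged 2552 ± 265 TPM, 2479 ± 443 TPM, 2233 ± 367 TPM, 1858 ± 256 TPM and 1837 ± 215 TPM.

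Genes of arginine use were unequal. *Nos2*, the inducible nitric oxide synthase, averaged 0.192 ± 0.136 TPM and *Arg1*, arginase 1, was at 0.0621, 0.869, 0.162, 9.89 and 20.97 TPM, above 1 TPM only in WT6 and WT7. *Ass1*, which remakes arginine, was at 454, 391, 279, 347 and 341 TPM. Of the matrix proteases *Mmp12*, the macrophage elastase, was at 3233, 3496, 4672, 4074 and 2959.7 TPM and *Adam8*, a surface protease, at 629, 332, 587, 299.8 and 256 TPM. *Plaur*, the urokinase receptor, averaged 305 ± 91.4 TPM and *Mmp25* 139.8 ± 50.9 TPM. Of the immediate early genes *Zfp36*, which degrades cytokine mRNA, *Atf3*, *Junb*, *Dusp1* and *Fos* averaged 614 ± 81.5 TPM, 549 ± 165 TPM, 508 ± 94.6 TPM, 495 ± 109 TPM and 349.7 ± 144 TPM.

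Between the 5 cultures, 399 of 8735 genes (4.57%) with a mean of 5 TPM or more varied 3-fold or more, on the scale of the highest over the lowest TPM + 1, and the median gene varied 1.65-fold. By kind, 68 of 140 pseudogenes varied, against 294 of 8231 protein-coding genes and 13 of 13 mitochondrially encoded ones. Of the 15 genes with the largest SD of log2(TPM + 1), 12 were pseudogenes, *Gm28438*, *Gm8430*, *Gm11518*, *Rps6-ps4*, *Gm12918*, *Rps12l1*, *Gm10231*, *Gm10359*, *Gm12671*, *Gm7336*, *Gm8203* and *Rpl34-ps1*, whose reads can be shared with the gene or sequence they copy. *Gm8430*, for instance, was at 1905 TPM in WT3 and at most 27.7 TPM elsewhere. *Gm10359*, *Gm12671* and *Gm7336* had identical values, so that their reads cannot be told apart. Of the remaining 3, *Eif2s3y* and *Ddx3y* are Y-linked and RP23-411B11.2 was not matched to GENCODE M21.

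The steadiest genes with a mean of 50 TPM or more included genes of vesicle traffic, protein turnover and lysosomal acidification. *Trappc1*, of a vesicle tether, had the smallest spread at 74.9, 76.5, 76.5, 73.5 and 78.6 TPM, and *Atp6v0d1*, of the lysosomal proton pump, came next at 157, 164, 155, 163 and 165 TPM. *Psmd14* and *Cops6*, subunits of the proteasome lid and the COP9 signalosome, averaged 72.5 ± 2.10 TPM and 64.0 ± 2.06 TPM. *Sptssa*, *Sft2d1*, *Golga7*, *Pcna*, *Abhd12* and *Srp19* completed the 10, with coefficients of variation up to 3.70%.

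The protein-coding genes with the largest spread were picked after their values were seen. One set was high in WT3 and WT5: *Mucl1* was at 722, 122, 391, 95.6 and 80.4 TPM, *Slc27a3*, a fatty acid transporter, at 233, 51.1, 147, 34.6 and 33.3 TPM and *Ccl2*, which draws monocytes through CCR2, at 67.1, 14.4, 113, 45.2 and 22.9 TPM. *H2-M2*, a class I-like gene known for its place on mature DCs, was at 692, 330.3, 864, 223 and 135 TPM and *Plet1*, of a DC and progenitor surface protein, at 86.7, 53.4, 249.2, 80.1 and 27.1 TPM, which WT5 alone lifted. Another set was low in those 2 cultures. Besides *Ly6c2*, *Fn1* and *Mmp8* it held *Hp*, haptoglobin, at 32.8, 68.2, 12.6, 104 and 106 TPM, *Apoc2*, of lipoproteins, at 22.1, 76.5, 15.9, 122 and 139 TPM and *Cxcl3*, a neutrophil chemokine, at 26.1, 67.5, 40.5, 229 and 129 TPM.

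Counted over all 10 pairs of cultures, WT3 and WT5 were the 2 highest for 132 of the 294 varying protein-coding genes and the 2 lowest for 61, more than any other pair on top, while WT6 and WT7 with 74 and WT4 and WT7 with 62 were more often the 2 lowest. Over all 8735 genes with a mean of 5 TPM or more, WT3 and WT5 were the 2 highest for 32.9% and the 2 lowest for 4.84%. On TMM-scaled TPM the pair was the 2 highest for 122 and the 2 lowest for 66 of the 294, and over all genes for 16.4 and 15.98%. WT4 and WT6 were also the 2 highest for 16.4% of all genes on that scale. The count is a description chosen after the data were seen, and its cause was not tested.

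**Figure D4:**
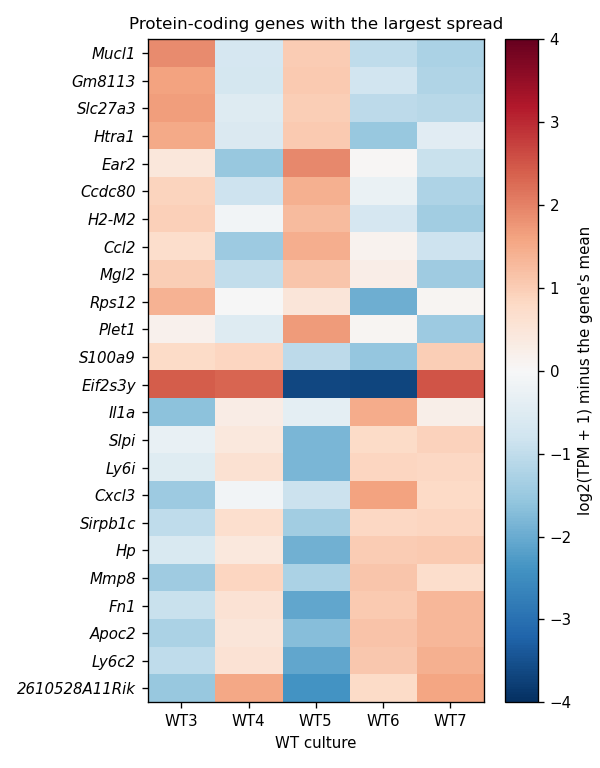
log2(TPM + 1) of each WT culture minus the gene's mean over the 5 cultures, for the 24 protein-coding genes with a mean of 20 TPM or more and the largest SD, red above and blue below the mean. WT3 and WT5 share the high end for *Mucl1*, *H2-M2* and *Mgl2* and the low end for *Fn1*, *Ly6c2* and *Mmp8*.

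Distances between cultures, the root mean square difference of log2(TPM + 1) over the 8735 genes, were smallest for WT4 and WT6 at 0.32 and largest for WT3 and WT7 at 0.80. WT5 was the nearest culture to WT3, at 0.56, but lay nearer to WT4 at 0.43 and to WT6 at 0.45. Between WT3 and WT7 211 genes differed 3-fold or more, and between WT4 and WT6 22. The correlation of log2(TPM + 1) across genes, which are not independent, was 0.935 to 0.983 over the 10 pairs. TMM scaling brought WT3 and WT7 to 0.62, and WT4 and WT6 remained the nearest at 0.32. On that scale WT5 lay at 0.43 from WT4, 0.46 from WT6 and 0.51 from WT3.

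The levels in WT7 moved with transcript length. For 8385 genes (96.0% of the 8735) a median transcript length was found, and they were put in 4 classes of nearly equal size. In the shortest class, with a median of 653 bases, WT7 lay by a median log2 difference of -0.23 from the mean of the other 4 cultures, and in the longest, with a median of 2974 bases, by -0.47. On TMM-scaled TPM these values were 0.09 and -0.16. WT3 lay above the others by 0.35 in the shortest and 0.29 in the longest class on TPM, and by 0.06 and 0.01 on TMM-scaled TPM. From the shortest to the longest class on TMM-scaled TPM, WT4 rose from -0.05 to 0.06 and WT6 from -0.02 to 0.10. WT7 is part of the mean they are set against, so their rise is not independent of its fall. The cause of these trends was not tested.

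**Figure D5:**
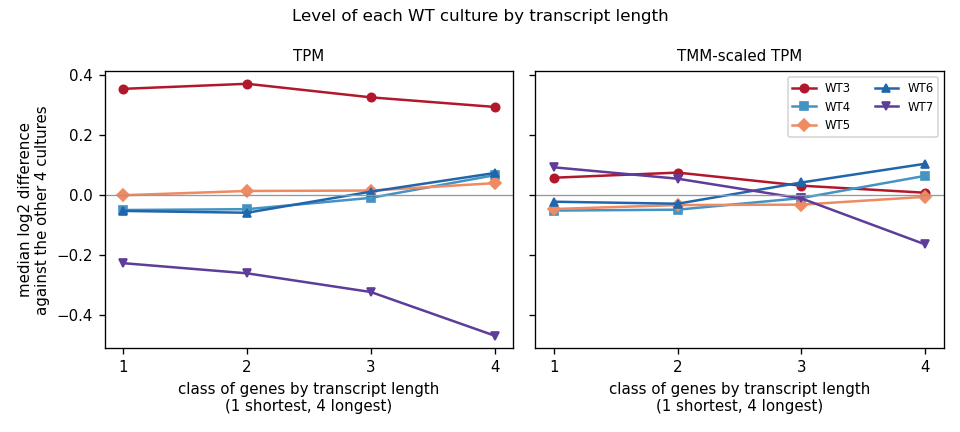
Median log2 difference of each WT culture from the mean of the other 4, for 4 classes of 8385 genes by median transcript length (1 shortest, 4 longest), on TPM (left) and on TMM-scaled TPM (right). The line of WT7 falls from the shortest to the longest class on both scales, to -0.47 and -0.16.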

How the data were processed

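The RNA-Seq values of 5 WT cultures were used. The authors made stranded mRNA libraries, trimmed reads with BBDuk, quantified them with Kallisto (an Ensembl mouse transcriptome, GRCm38) and summed transcripts to genes with tximport. The submitters' notes also name FastQC and edgeR. For each gene the authors deposited TPM and estimated counts, and the deposited estimated counts equal the TPM times 1 factor per library. Of 30620 features, 32 that name no gene (27 turned into dates and 5 placeholders, 0.0843 to 0.121% of TPM) were left out. Columns were assigned by sample name.

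Means, SD and ranges were computed on TPM with pandas 2.3.3 (Python 3.11.15). Expressed means 1 TPM or more in every culture. Varying means a mean of 5 TPM or more and a highest over lowest TPM + 1 of 3 or more. TMM factors came from edgeR 4.0.16 (R 4.3.3) on the estimated counts, rounded to whole numbers, and TMM-scaled TPM are TPM divided by the factor. No test between groups was made. The precision rests on 5 cultures per value. The call of varying genes was tested on simulated data with known fold changes. The simulated noise was independent between genes and smaller than the differences between these cultures. The simulation therefore gives no rate of false calls in these data.

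The members and the 52 gene lists (1027 entries, 1025 found, 4 of them by an older symbol) were chosen with earlier results of these data known. Named genes are the 25 highest means, 4 markers, the 5 highest of each list, silent markers of other cell types, whole cAMP and colony-stimulating factor receptor families, Y-linked genes, and the 15 largest (mean of 5 TPM or more) and 10 smallest (mean of 50 TPM or more) SD of log2(TPM + 1). Others, such as *Cd86*, *Flt3*, *Cish*, *Ciita*, *Rel*, *Crlf2*, *Csf2*, *Nos2* and *Il12a*, were chosen after their values were seen. Some genes that the rule names are not reported here. Alternatives were other thresholds, a pseudocount of 0.1, TMM scaling, no mitochondrial genes, the median, and leaving out each culture.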

Additional observations from a re-analysis of the deposited data

Results flagged for a closer look

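In a group of 5 cultures, 1 culture was set apart by Dixon's ratio in 29 of 326 values examined. Chance alone would set apart about 1 in 20 of independent values that were not picked by their spread. The values here overlap, as sums do with their members, and include genes picked for a large SD between these cultures. The count therefore cannot be compared with that rate. WT3 was the outlying culture in 17 of the 29, WT7 in 5, WT5 in 3, and WT4 and WT6 in 2 each. In WT3 the share of TPM in the 10 most abundant genes was low at 15.7%, as were *mt-Co1* at 4811 TPM and *mt-Cytb* at 929 TPM. Of genes high in WT3, *H2-Eb1* was at 7687 TPM, *Actg1* at 4939, *Vim* at 3616, *Psme2* at 796, *Gnas* at 532, *Pmvk* at 119 and *Sox4* at 16.3 TPM. Copies high in WT3 were *Gm8430* at 1905 TPM, *Rps6-ps4* at 491, *Gm12918* at 257, *Rps12l1* at 214, *Gm10231* at 152, *Gm8203* at 100.3 and *Rpl34-ps1* at 69.5 TPM.

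In WT7 *Cd274* at 149 TPM, *Csf2rb2* at 221 TPM and the summed interleukin and interferon receptors at 1238 TPM were low, and *Ftl1* at 16017 TPM and *Ear1* at 2.67 TPM were high. In WT5 *Id2* at 1022 TPM, *Adcy4* at 2.54 TPM and the summed eosinophil markers at 541 TPM, mostly *Ear2*, were high. WT6 was high for *Il2rg* at 154 TPM and for the summed pattern recognition receptors at 1854 TPM. WT4 was high for *Kit* at 20.3 TPM and for the summed mast cell and basophil markers at 27.9 TPM, mostly *Kit*.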

How the results depend on the processing

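The count of varying genes depended on its limits: 628 with a mean of 1 TPM or more, 202 with a mean of 20 TPM or more, 1999 at 2-fold and 196 at 4-fold, against 399. Leaving out 1 culture gave 241 (without WT3) to 379 (without WT4), and without WT7 268. Of the 241, 232 were among the 399. TMM scaling gave 319 and the removal of mitochondrially encoded genes 381. TMM scaling moved the share of genes with WT3 and WT5 as the 2 highest cultures to 16.4%, and as the 2 lowest to 15.98%. These pairs, the length classes and the kinds of gene were chosen after seeing the data. The count of expressed genes (10565) stayed within 7785 to 12383 over the other thresholds, and within 10587 to 10776 without 1 culture. The shares of the most abundant genes and the summed levels of DC identity, macrophage and MHC class II genes moved by less than 1 SD under each alternative run. Of 268 named genes at 1 TPM or more, the mean of 13 moved over 1.5 times without 1 culture: *Ear2* without WT5, *Gm28437* without WT7 and 11 copies without WT3. No paired analysis was possible because the values come from 1 group and no test. The depth of 34252701 estimated counts or more limits genes under 1 TPM, whose levels are given as values only.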
